A study of Mus musculus with 24 samples.

Results

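Sox9, Nfia, Nfib, Nfic, Nfix, Zbtb20, Rorb and Lhx2 encode transcription factors that are tied to the formation or the identity of astrocytes. These 8 genes were taken by name, not by their values, from the 49671 genes counted in each of 24 mouse RNA sequencing libraries, and all 8 were among the 19691 genes that had enough reads to be tested. The libraries fell into 6 groups of 4. Neural stem cells (NSC) were kept in EGF and FGF and came from a single embryonic stem cell line, GSC-5003 of C57Bl/6N origin. AGES, astrocytes generated from embryonic stem cells, were obtained by treating these NSC with 20 ng/ml BMP4 for 3 to 5 days, on another coating and in a medium for which EGF and FGF are not listed, so that BMP4 and the loss of these factors cannot be told apart. Neonatal astrocytes (neoAC) came from C57BL/6J wild-type mice of 4 to 8 days, and adult astrocytes (AdAC) from such mice of 100 to 140 days. Both were sorted with magnetic beads against ACSA-2, an antigen carried by the sodium pump subunit Atp1b2, and were either frozen at once (direct) or cultured for 7 to 10 days (CellC). Each primary replicate was a separate isolation of 2 pooled mice, with both sexes mixed, and each NSC or AGES replicate was a culture of another passage of the same line. Neonatal and adult brains were dissociated with different kits, so that age and dissociation cannot be told apart. Neonatal isolations are described as starting from cerebral tissue freed of meninges, and removal of meninges is not described for adult brains. Tissue and age therefore cannot be fully told apart either. Removal of the olfactory bulb and cerebellum is described for the adult direct isolations alone, so that region and culture cannot be fully told apart in adult cells.

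In the embryonic brain, SOX9 and the nuclear factor I (NFI) proteins mark the switch of radial glia from making neurons to making glia, and SOX9 induces Nfia, with which it then shares target genes. The NFI family has 4 paralogs, whose proteins bind a palindromic DNA site as homodimers or heterodimers. ZBTB20 is a zinc finger repressor that promotes astrocyte formation in the cortex, and RORB is an orphan nuclear receptor used by astrocytes and by cortical layer neurons. LHX2 is a LIM homeodomain factor that holds progenitors of the developing hippocampus back from the glial fate.

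The libraries held 27904126 to 37997368 counted fragments or reads (median 32239904), and the 8 genes together took 0.0806% to 0.238% of them. Levels are given as CPM, which are counts per 1000000 counts of a library whose total is scaled by the TMM method, and 3 counts corresponded to 0.0786 to 0.117 CPM, far below any level of the 8 genes. The labelled cell types were checked against summed levels of fixed markers. The 9 astrocyte markers summed to 55108 to 60034 CPM in AGES, 21194 to 24184 in neoAC direct, 15997 to 16725 in AdAC direct, 7405 to 8607 in neoAC CellC, 1942 to 2470.4 in NSC and 918 to 1411 in AdAC CellC. Single genes carried parts of this order. Gfap made up 50503 CPM of the AGES sum, and the other 8 markers summed to 6165 to 7098 CPM in AGES, 19648 to 22434 in neoAC direct and 15835 to 16554 in AdAC direct, with Aldh1l1 and Gja1 (both lowest in AGES, the latter at 10.3 CPM) among them. Slc1a3, which radial glia and stem cells also express, was at 1499 CPM in NSC and 219 in AdAC CellC, and without it the sums of NSC (644 to 856 CPM) and AdAC CellC (756 to 1125 CPM) overlapped. The genes left out here were chosen after the sums were seen. Atp1b2, which carries the antigen used for sorting, was at 123 ± 17.9 CPM (SD, n = 4) in AdAC CellC against 2235 ± 99.0 CPM in AdAC direct. The 7 neural stem cell markers were highest in neoAC direct (6306 to 8127 CPM) and NSC (3776 to 4632 CPM) and lowest in AdAC direct (547 to 634 CPM), but without Fabp7 (5899 CPM in neoAC direct) they were highest in NSC (3022 to 3592 CPM), against 1207 to 1441 CPM in neoAC direct and 1714 to 1932 CPM in AdAC CellC. The 7 oligodendrocyte markers summed to 26067 to 28772 CPM in AdAC direct and 4209 to 10642 CPM in AdAC CellC, against at most 401 CPM in any library of the other groups. The 4 oligodendrocyte precursor markers reached 373 to 495 CPM in AdAC direct, mostly Sox10 (400.2 CPM), which is also 1 of the 7 oligodendrocyte markers, and the other 3 were highest in neoAC CellC (72.3 to 109 CPM, against 24.5 to 30.7 in AdAC direct). The 4 ependymal markers summed to 1435 to 1834 CPM in neoAC CellC and 1009 to 1141 CPM in AdAC direct. The 6 mural and fibroblast markers were highest in AdAC CellC (1114 to 1533 CPM), the 4 endothelial and 6 microglia markers in neoAC direct (57.8 to 239 and 10.8 to 54.9 CPM, in both cases with the highest sum in replicate 2) and the 7 neuron markers in AdAC CellC (167 to 239.7 CPM), there mostly Tubb3 (144 CPM) and Stmn2 (59.1 CPM), while Snap25 was at 1.18 CPM in AdAC CellC and 7.05 CPM in neoAC direct. At 0 in all 4 libraries of a group were Gpr17 (precursors), Cx3cr1 and Aif1 (microglia) in NSC and Cdh5 (endothelium) and Lum (fibroblasts) in AGES. In such bulk libraries fewer cells of a type and less RNA per cell cannot be told apart.

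Of the 8 genes, 6 had 11 upstream windows in the RefSeq promoter table for GRCm38.p6 (none was listed for Sox9 and Nfib). Each holds the 250 bases before a transcription start, and 1 window is printed for each of Rorb, Lhx2 and Nfia, which fell in culture at both ages as described further on. They are given 5′ to 3′ on the gene's strand, with every match to an NFI half-site (TTGGC), a SOX core (ACAAT), a ROR half-site (AGGTCA) or a LIM homeodomain core (TAATTA), on either strand, in capitals.
Rorb, chr19:19111197-19111446 (minus strand): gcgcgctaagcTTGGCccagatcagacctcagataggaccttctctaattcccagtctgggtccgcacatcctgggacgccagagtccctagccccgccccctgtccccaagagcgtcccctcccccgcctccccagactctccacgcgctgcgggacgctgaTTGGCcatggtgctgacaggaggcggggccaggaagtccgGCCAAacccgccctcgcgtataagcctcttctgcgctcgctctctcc
Lhx2, chr2:38339031-38339280 (plus strand): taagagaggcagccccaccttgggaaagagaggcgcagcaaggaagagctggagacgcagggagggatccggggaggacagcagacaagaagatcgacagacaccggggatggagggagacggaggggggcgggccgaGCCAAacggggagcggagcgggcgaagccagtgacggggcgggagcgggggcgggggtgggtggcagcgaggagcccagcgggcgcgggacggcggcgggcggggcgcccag
Nfia, chr4:97581693-97581942 (plus strand): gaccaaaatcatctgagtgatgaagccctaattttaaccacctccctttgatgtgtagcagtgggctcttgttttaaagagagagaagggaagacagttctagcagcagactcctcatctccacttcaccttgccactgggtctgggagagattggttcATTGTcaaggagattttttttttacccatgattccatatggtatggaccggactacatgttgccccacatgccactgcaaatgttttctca

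The printed Rorb window held 3 NFI half-sites, the printed Lhx2 window held 1, and the Nfia window held 1 SOX core and no NFI half-site. The starts of the Rorb and Lhx2 windows coincided with the Gencode gene starts, whereas that of Nfia lay 190791 bases upstream of it. Rorb and Lhx2 each had a second window, 110079 and 12027 bases downstream of the first start, which held 1 SOX core for Rorb and no match for Lhx2. Over the members' 11 windows, 4 held TTGGC, 3 ACAAT, 2 AGGTCA and 1 TAATTA. Among all 32851 windows of the same length in the table, 41.5% held TTGGC, 27.7% ACAAT, 14.0% AGGTCA and 4.84% TAATTA. These are matches of letters and say nothing of binding.

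The 8 genes differed in how much of the transcriptome they took. Per kb of exon, Sox9 had the highest mean level of the 8 in neoAC direct (135 CPM per kb), AGES (66.3 CPM per kb) and AdAC direct (61.6 CPM per kb). In AGES and AdAC direct its libraries overlapped with those of Nfix (means of 61.6 and 57.1 CPM per kb). The order of genes depends on the length used. Sox9 and Nfix have 4135 and 7351 exon bases but 1521 and 1509 coding bases, and in AGES they had 274 and 453 CPM before division. Nfix was the highest of the 8 in NSC, neoAC CellC and AdAC CellC, at 27.3, 79.3 and 58.5 CPM per kb. Rorb was the lowest in every group, from 0.652 CPM per kb in NSC to 5.72 in neoAC direct. Exon length counts every annotated exon once, which for Zbtb20 gave 30730 bases against 2249 coding bases, so that its level per kb is understated where most of these exons are not used.

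**Figure D1:**
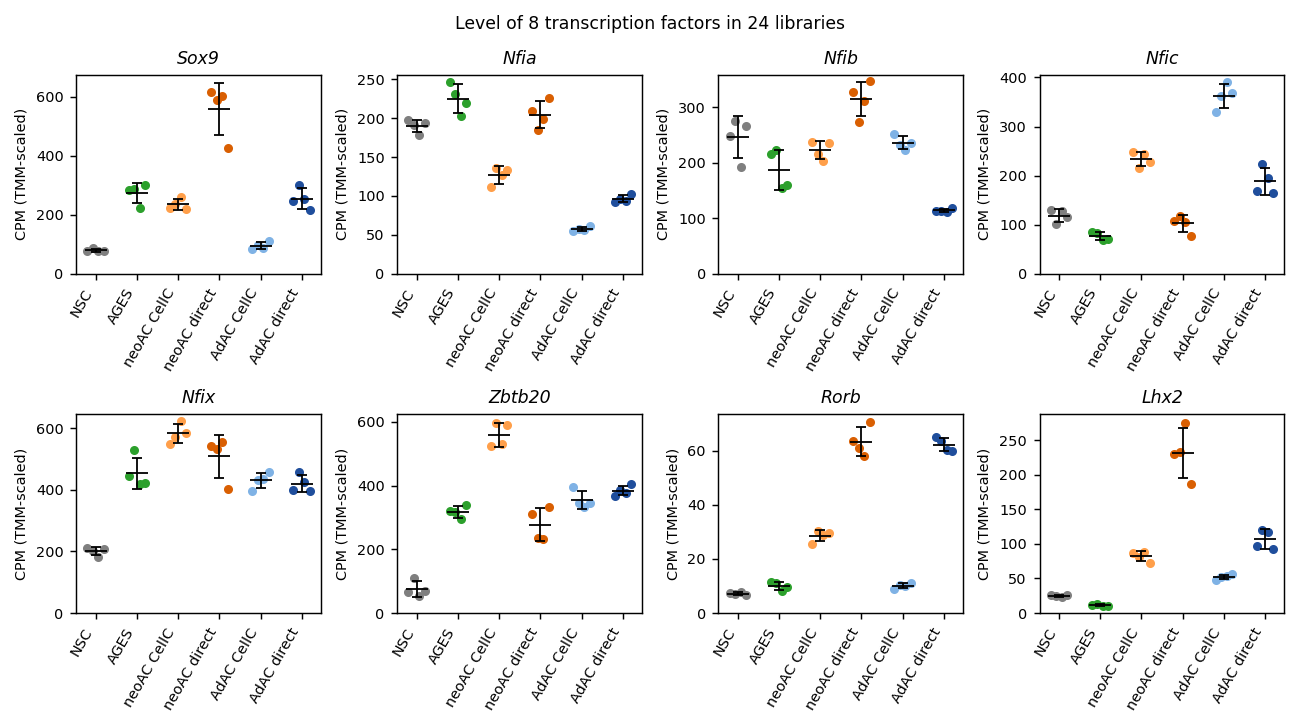
Level of each gene in every library, as TMM-scaled CPM on the vertical axis of each panel (starting at 0) and the 6 groups on the horizontal axis. Points are the 4 libraries of a group and black bars the mean ± SD. Sox9 stands highest in neoAC direct, Rorb and Lhx2 in both groups of directly isolated astrocytes, Nfic in cultured adult astrocytes and Zbtb20 in cultured neonatal astrocytes, while NSC lie lowest for Sox9, Nfix, Zbtb20 and Rorb.

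Sox9 (chromosome 11, 112782224 to 112787760 on GRCm38, plus strand) was most abundant in directly isolated neonatal astrocytes. The 4 neoAC direct libraries had 615, 591, 603 and 428 CPM and the 4 neoAC CellC libraries 224, 235, 260.2 and 221 CPM. The AdAC direct libraries had 247, 302, 255 and 215 CPM and the AdAC CellC libraries 84.8, 96.3, 87.8 and 110.1 CPM. At both ages the cultured and direct libraries did not overlap, and replicate 4 of neoAC direct stood below the other 3. Sox9 fell by 1.43 on the log2 scale in adult culture (2.69-fold, SE 0.12, adjusted p = 4.47e-11) and by 1.25 in neonatal culture (2.38-fold, SE 0.12, adjusted p = 9.53e-10). All adjusted p-values of fold changes are from edgeR's quasi-likelihood test with Benjamini-Hochberg adjustment over 19691 genes, with 4 libraries per group.

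Sox9 rose on differentiation with BMP4. The NSC libraries had 78.0, 86.4, 76.7 and 76.1 CPM and the AGES libraries 283, 288, 225 and 301 CPM, with no overlap (log2 fold change 1.79, SE 0.12, adjusted p = 8.59e-13). Sox9 was also higher in neonatal than in adult astrocytes, both direct (log2 fold change 1.13, SE 0.12, adjusted p = 3.93e-09) and cultured (log2 fold change 1.31, SE 0.12, adjusted p = 5.62e-10). In the order of the 6 groups, neoAC direct led, AGES, AdAC direct and neoAC CellC followed with no neighbour differing beyond the test (adjusted p = 0.403 and 0.368), and AdAC CellC and NSC came last, 7.05-fold below the highest group in the case of NSC. AdAC CellC was above NSC by a narrow margin (adjusted p = 0.049), with overlapping libraries. AGES exceeded AdAC CellC (log2 fold change 1.53, SE 0.12, adjusted p = 1.13e-11), while for AGES against neoAC CellC the log2 fold change was 0.22 (SE 0.12, adjusted p = 0.0856). The latter passed without AGES replicate 3 (log2 fold change 0.31, adjusted p = 0.0224) or without neoAC direct replicate 4 (0.22, adjusted p = 0.0499). It also passed with no filter (0.26, adjusted p = 0.0445).

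Nfia (chromosome 4, 97772734 to 98118874, plus strand), the paralog that SOX9 is known to induce, fell in culture at both ages, by less than Sox9. The AdAC direct libraries had 92.7, 96.5, 93.6 and 102 CPM and the AdAC CellC libraries 55.3, 57.9, 56.2 and 61.0 CPM (log2 fold change -0.74, SE 0.08, adjusted p = 2.28e-09). In neonatal cells the direct libraries held 209, 185, 199 and 226 CPM and the cultured ones 111, 136, 127 and 133 CPM (log2 fold change -0.69, SE 0.08, adjusted p = 1.40e-08). Neither pair of groups overlapped. Neonatal cells held more Nfia than adult cells when direct (log2 fold change 1.09, SE 0.08, adjusted p = 2.40e-12) and when cultured (log2 fold change 1.14, SE 0.08, adjusted p = 2.58e-12). NSC (190.1 ± 7.94 CPM, SD, n = 4) and AGES (225 ± 18.4 CPM) lay near neoAC direct, the neighbours AGES, neoAC direct and NSC not differing beyond the test in the order of levels (adjusted p = 0.101 and 0.196). AGES against NSC, which are not neighbours in that order, gave a log2 fold change of 0.24 (SE 0.07, adjusted p = 0.00594). That call was lost when libraries were scaled by total counts only (0.17, adjusted p = 0.0738). AGES held 3.91-fold more Nfia than AdAC CellC (log2 fold change 1.97, SE 0.08, adjusted p = 1.30e-17) and 1.77-fold more than neoAC CellC (log2 fold change 0.83, SE 0.08, adjusted p = 3.01e-10).

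Nfib (chromosome 4, 82290173 to 82705750, minus strand), a partner of Nfia in forebrain gliogenesis, changed in opposite directions in the cultures of the 2 ages. In adult cells it rose from 112, 113, 112 and 119 CPM in the direct libraries to 251, 232, 224 and 235 CPM in the cultured ones (log2 fold change 1.05, SE 0.11, adjusted p = 7.69e-09). In neonatal cells it fell from 328, 273, 311 and 347 CPM to 238, 215, 202 and 236 CPM (log2 fold change -0.50, SE 0.11, adjusted p = 4.29e-04). Both pairs of groups were free of overlap, and AdAC direct was the lowest of the 6 groups. The difference between the changes, adult minus neonatal, was 1.55 on the log2 scale (SE 0.16, adjusted p = 5.65e-09, interaction term). Direct neonatal cells held 2.76-fold more Nfib than direct adult cells (log2 fold change 1.47, SE 0.12, adjusted p = 2.57e-11), and for the cultured cells of the 2 ages the log2 fold change was -0.08 (SE 0.11, adjusted p = 0.553), with a sign that turned in 6 of the alternative settings.

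The oligodendrocyte markers were highest in the direct adult libraries, in which Nfib was lowest, and 6 of the 7 fell in adult culture. In neonatal culture 6 of 7 rose from low levels, but Cnp fell from 297 to 192 CPM. Their sum did not rise there, with 323 to 401 CPM in neoAC direct and 253 to 341 CPM in neoAC CellC. The part of these markers in the Nfib values was not tested. Nfib was lower in AGES (215, 222, 154 and 159 CPM) than in NSC (249, 276, 192 and 267 CPM), with overlapping libraries (log2 fold change -0.39, SE 0.11, adjusted p = 0.00389), and this call was lost when only those 2 groups were fitted (-0.30, adjusted p = 0.0977). Against AdAC CellC, AGES were lower by 0.33 (SE 0.11, adjusted p = 0.0112), a call lost with no filter (-0.21, adjusted p = 0.108), with only those groups fitted (-0.23, adjusted p = 0.112), without AGES replicate 3 (-0.25, adjusted p = 0.0587) and without AGES replicate 4 (-0.26, adjusted p = 0.0532). Against neoAC CellC the log2 fold change was -0.25 (SE 0.11, adjusted p = 0.0515), which passed in several alternatives, among them those without AGES replicate 1 (-0.32, adjusted p = 0.0192) or AGES replicate 2 (-0.34, adjusted p = 0.0119), without neoAC CellC replicate 3 (-0.30, adjusted p = 0.0320), without NSC replicate 2 or 3 and without neoAC direct replicate 2 or 4 (-0.25 in each of these 4).

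Nfic (chromosome 10, 81396186 to 81455635, minus strand), a paralog known for its part in tooth root formation, was the member that rose in culture at both ages. The AdAC direct libraries had 169, 225, 196 and 165 CPM and the AdAC CellC libraries 330.0, 362, 390.0 and 368 CPM (log2 fold change 0.94, SE 0.12, adjusted p = 5.42e-08). The neoAC direct libraries had 108, 119, 106 and 77.6 CPM and the neoAC CellC libraries 248, 217, 244 and 227 CPM (log2 fold change 1.19, SE 0.12, adjusted p = 2.01e-09). In each pair every cultured library exceeded every direct one. Nfic was also the NFI gene that was lower in neonatal than in adult cells, direct (log2 fold change -0.88, SE 0.12, adjusted p = 2.50e-07) and cultured (log2 fold change -0.63, SE 0.11, adjusted p = 3.34e-05). AGES held the least Nfic of all groups (84.7, 83.1, 68.7 and 70.5 CPM), below NSC (log2 fold change -0.63, SE 0.12, adjusted p = 3.28e-05), 4.73-fold below AdAC CellC (log2 fold change -2.24, SE 0.12, adjusted p = 6.56e-15) and 3.05-fold below neoAC CellC (log2 fold change -1.61, SE 0.12, adjusted p = 4.07e-12). The median of all genes was -0.23 in the comparison of AGES with AdAC CellC, against which its values are to be read, and within 0.1 of 0 in the other comparisons.

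Nfix (chromosome 8, 84699876 to 84800344, minus strand), which has a known part in neural stem cell quiescence, was the most even of the 4 paralogs among the astrocyte groups. The AdAC direct libraries ranged from 398 to 456 CPM and the AdAC CellC libraries from 396 to 458 CPM, with a log2 fold change of 0.03 (SE 0.09, adjusted p = 0.74) whose sign turned with DESeq2 size factors (-0.05). The neoAC direct libraries had 540.5, 533, 554 and 404 CPM and the neoAC CellC libraries 549, 572, 624 and 585 CPM. Replicate 4 of neoAC direct again lay apart, and the log2 fold change in culture was 0.20 (SE 0.09, adjusted p = 0.0653). This passed without AGES replicate 2 (0.20, adjusted p = 0.0479) or neoAC direct replicate 3 (0.24, adjusted p = 0.0406), and with scaling by total counts only (0.43, adjusted p = 0.000263). It also passed when genes needed 10 counts in every library (0.30, adjusted p = 0.00572) and with the DESeq2 test (0.21, adjusted p = 0.0423). In contrast, Nfix rose with BMP4, from 210.0, 202, 182 and 209 CPM in NSC to 445, 528, 418 and 420.3 CPM in AGES (log2 fold change 1.17, SE 0.09, adjusted p = 3.30e-11). All 5 other groups lay above NSC without overlap, and none of the neighbours among these 5 differed beyond the test in the order of levels (adjusted p = 0.0653 to 0.74). Between more distant groups, Nfix was lower in AGES than in neoAC CellC (log2 fold change -0.36, SE 0.09, adjusted p = 0.00113) and higher in neonatal than in adult cells, cultured (log2 fold change 0.44, SE 0.09, adjusted p = 2.28e-04) and direct (log2 fold change 0.27, SE 0.09, adjusted p = 0.011), the last call being lost when scaled by total counts only (0.20, adjusted p = 0.0568).

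Since the 4 paralogs can pair with each other, their share in the summed NFI reads per kb of exon was also compared. The summed NFI level was 79.1 ± 4.23 CPM per kb in NSC (SD, n = 4), 106 ± 11.2 in AGES, 141 ± 4.34 in neoAC CellC, 124 ± 9.50 in neoAC direct, 134 ± 6.12 in AdAC CellC and 102 ± 7.73 in AdAC direct. In NSC the shares were rather even, with 34.5% ± 0.549 Nfix (SD in percentage points, n = 4), 22.7% ± 3.02 Nfic, 22.1% ± 0.309 Nfia and 20.7% ± 2.57 Nfib. The order of the paralogs within a group depends on the length used. Exon lengths run from 6630 bases for Nfic to 14957 for Nfib, and coding lengths from 1431 for Nfic to 1785 for Nfib. Before division Nfib had the highest level of the paralogs in NSC, 246 CPM against 201 CPM for Nfix. In AGES, Nfix made up 57.9% ± 2.16 and Nfic 10.9% ± 0.495. AdAC CellC had the lowest share of Nfia (3.94% ± 0.138) and the highest of Nfic (40.7% ± 1.37), close to their share of Nfix (43.6% ± 0.936). In AdAC direct, Nfix stood at 56.0% ± 0.608, Nfic at 27.8% ± 1.92, Nfia at 8.71% ± 0.808 and Nfib at 7.50% ± 0.657.

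Of 28 differences in share (4 paralogs in 7 comparisons), 22 had groups without overlap and the smallest p that an exact two-sided permutation test of 4 against 4 libraries allows, 0.0286, which became 0.0364 after Benjamini-Hochberg adjustment over the 28. The 4 shares of a library make up a whole, so the 28 are not separate results and a share can fall while the level does not. In adult culture Nfix had a log2 fold change of 0.03, yet its share was 12.4 points lower. The share of Nfic was 12.9 percentage points higher in cultured than in direct adult cells and 12.6 points higher in cultured than in direct neonatal cells. The share of Nfia was lower in culture by 4.77 and 6.96 points. The share of Nfib was 4.27 points higher in adult culture but 6.47 points lower in neonatal culture. BMP4 differentiation came with 23.4 points more Nfix, and with 11.8 points less Nfic, 9.01 points less Nfib and 2.59 points less Nfia. The share of Nfix was 56.2% ± 1.57 in neoAC CellC and 55.3% ± 3.84 in neoAC direct, with overlapping libraries (exact permutation test, adjusted p = 0.862). The lower share of Nfia in AGES than in NSC did not pass when coding length was used (adjusted p = 0.0696) or when counts were not divided by length (adjusted p = 0.277).

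**Figure D2:**
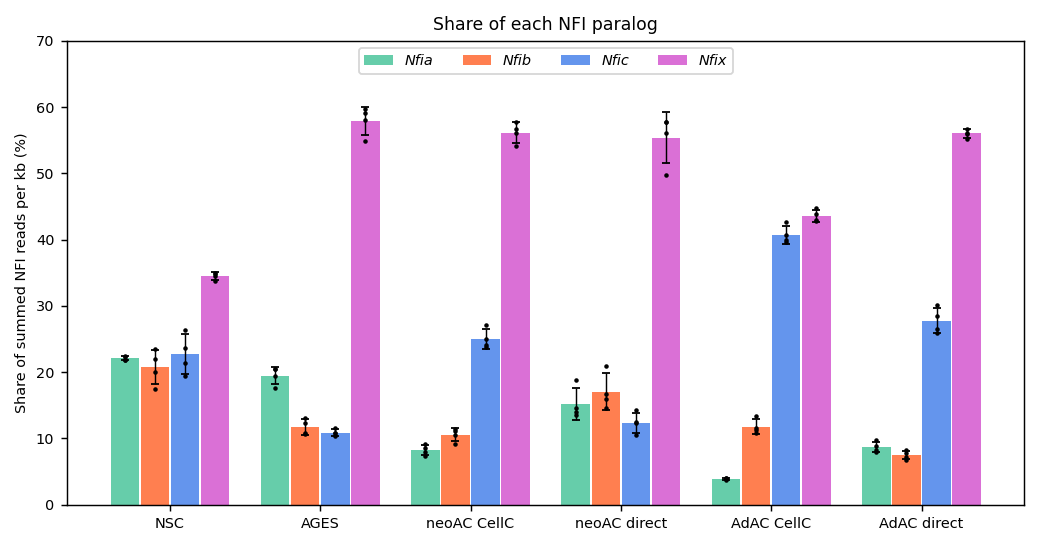
Share of each NFI paralog in the summed NFI reads per kb of exon (vertical axis, %) in the 6 groups (horizontal axis). Bars are means of 4 libraries, error bars the SD and dots the libraries. Nfix takes 57.9% in AGES against 34.5% in NSC, and Nfic is at its highest in AdAC CellC.

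Zbtb20 (chromosome 16, 42875881 to 43642602, plus strand) changed most, among the 7 comparisons, from NSC to AGES. The NSC libraries had 66.2, 111, 53.8 and 69.5 CPM, a wide spread with replicate 2 on top, and the AGES libraries 322, 316, 294 and 341 CPM, 4.24-fold more (log2 fold change 2.08, SE 0.15, adjusted p = 4.69e-12). Adult cells had similar ranges when direct (369 to 404 CPM) and cultured (332 to 395 CPM), with a log2 fold change of -0.12 (SE 0.14, adjusted p = 0.466). In neonatal cells Zbtb20 rose from 310.1, 235, 232 and 333 CPM to 525, 596, 531 and 590.2 CPM, without overlap (log2 fold change 1.01, SE 0.15, adjusted p = 1.31e-06). The difference between these changes, adult minus neonatal, was -1.13 (SE 0.21, adjusted p = 3.10e-05, interaction term). Zbtb20 was higher in neonatal than in adult cultures (log2 fold change 0.66, SE 0.15, adjusted p = 3.22e-04) and lower in neonatal than in adult direct cells (log2 fold change -0.47, SE 0.15, adjusted p = 0.00583).

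The 4 ependymal markers all rose in neonatal culture, as Zbtb20 did, and all fell in adult culture, where Zbtb20 did not pass. Their sum was 127 to 196 CPM in neoAC direct, 1435 to 1834 CPM in neoAC CellC, 1009 to 1141 CPM in AdAC direct and 221 to 318 CPM in AdAC CellC. In AGES, which had 318 CPM of Zbtb20, the sum was 54.0 to 78.7 CPM. The part of these markers in the Zbtb20 values was not tested. In the order of levels neoAC CellC led, AdAC direct, AdAC CellC, AGES and neoAC direct followed with no neighbours among them differing beyond the test (adjusted p = 0.226 to 0.466), and NSC was lowest. AGES were below neoAC CellC (log2 fold change -0.82, SE 0.15, adjusted p = 1.86e-05), and against AdAC CellC the log2 fold change was -0.16 (SE 0.14, adjusted p = 0.333), past the threshold when scaled by total counts only (-0.38, adjusted p = 0.0214).

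Rorb (chromosome 19, 18930605 to 19111196, minus strand) had the lowest levels per kb and, in adult cells, the largest fall of the 8 in culture. The AdAC direct libraries had 65.0, 63.7, 60.3 and 60.1 CPM and the AdAC CellC libraries 8.81, 10.5, 10.1 and 11.1 CPM, a 6.14-fold difference (log2 fold change -2.62, SE 0.10, adjusted p = 9.65e-18). In neonatal cells the direct libraries had 63.7, 61.3, 58.0 and 70.5 CPM and the cultured libraries 25.7, 30.4, 29.0 and 29.5 CPM, a 2.21-fold difference (log2 fold change -1.14, SE 0.09, adjusted p = 5.46e-11). The adult fall was the larger by 1.47 on the log2 scale (SE 0.13, adjusted p = 3.39e-10, interaction term). The direct libraries of the 2 ages overlapped (0.03, SE 0.09, adjusted p = 0.813), whereas the cultured neonatal cells held 2.83-fold more Rorb than the adult ones (log2 fold change 1.50, SE 0.10, adjusted p = 1.14e-12). In AGES, Rorb (11.5, 11.0, 8.33 and 9.48 CPM) was above NSC (7.27, 7.16, 7.80 and 6.66 CPM) without overlap (log2 fold change 0.48, SE 0.10, adjusted p = 1.53e-04) but stayed 2.85-fold below neoAC CellC (log2 fold change -1.51, SE 0.10, adjusted p = 2.58e-13). AGES and AdAC CellC were neighbours in the order of levels, and their log2 fold change of -0.01 (SE 0.10, adjusted p = 0.928) turned its sign in several settings. It passed when scaled by total counts only (-0.23, adjusted p = 0.0499).

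Lhx2 (chromosome 2, 38339281 to 38369733, plus strand) spanned the widest range of the 8 genes, 20.3-fold between neoAC direct and AGES. The neoAC direct libraries had 229.8, 233, 275 and 186 CPM and the neoAC CellC libraries 86.3, 81.8, 88.8 and 72.1 CPM (log2 fold change -1.49, SE 0.11, adjusted p = 5.16e-12). The AdAC direct libraries had 96.4, 120.0, 118 and 92.1 CPM and the AdAC CellC libraries 47.4, 52.1, 53.0 and 55.9 CPM (log2 fold change -1.03, SE 0.11, adjusted p = 2.30e-09). Lhx2 thus fell in both cultures, and each of the 6 groups differed from its neighbour in the order of levels (adjusted p of at most 0.00244), with no overlap between neighbours. The neonatal fall was the larger by 0.46 (SE 0.15, adjusted p = 0.00811), a call lost when scaled by total counts only (0.30, adjusted p = 0.0703) and when genes needed 10 counts in every library (0.32, adjusted p = 0.0512). It fell on differentiation with BMP4, from 25.8, 24.9, 23.4 and 25.5 CPM in NSC to 12.1, 12.8, 10.2 and 10.4 CPM in AGES (log2 fold change -1.13, SE 0.11, adjusted p = 1.55e-09), which lay 4.59-fold below AdAC CellC (log2 fold change -2.20, SE 0.11, adjusted p = 2.87e-15) and 7.24-fold below neoAC CellC (log2 fold change -2.86, SE 0.11, adjusted p = 1.67e-17). Neonatal cells held more than adult cells, direct (log2 fold change 1.12, SE 0.10, adjusted p = 6.94e-10) and cultured (log2 fold change 0.66, SE 0.11, adjusted p = 6.09e-06).

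In adult culture 2 of the 8 genes rose (Nfib and Nfic, against 38.8% of all genes tested), 4 fell (Sox9, Nfia, Rorb and Lhx2, against 39.2% of all genes), and Nfix and Zbtb20 did not pass. In neonatal culture 2 rose (Nfic and Zbtb20, against 34.4% of all genes), 5 fell (Sox9, Nfia, Nfib, Rorb and Lhx2, against 31.3% of all genes), and Nfix did not pass. The medians over the 8 were -0.43 and -0.59 on the log2 scale, with medians over all genes of 0 and 0.04. The cultured and direct libraries did not overlap for 6 of the 8 genes in adult cells (all genes, 76.3%) and for 7 of 8 in neonatal cells (all genes, 58.0%). By the interaction term, adult minus neonatal change, Nfib and Lhx2 were higher (all genes, 35.4%), Zbtb20 and Rorb lower (all genes, 33.2%), and the other 4 did not pass. Of these, Nfic and Nfix passed as lower when scaled by total counts only (-0.40 and -0.32, adjusted p = 0.0326 and 0.0374). They also passed when genes needed 10 counts in every library (-0.38 and -0.30, adjusted p = 0.0401 and 0.0468). In both settings the Lhx2 call was lost. With so many genes changed, these counts do not set the 8 apart.

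**Figure D3:**
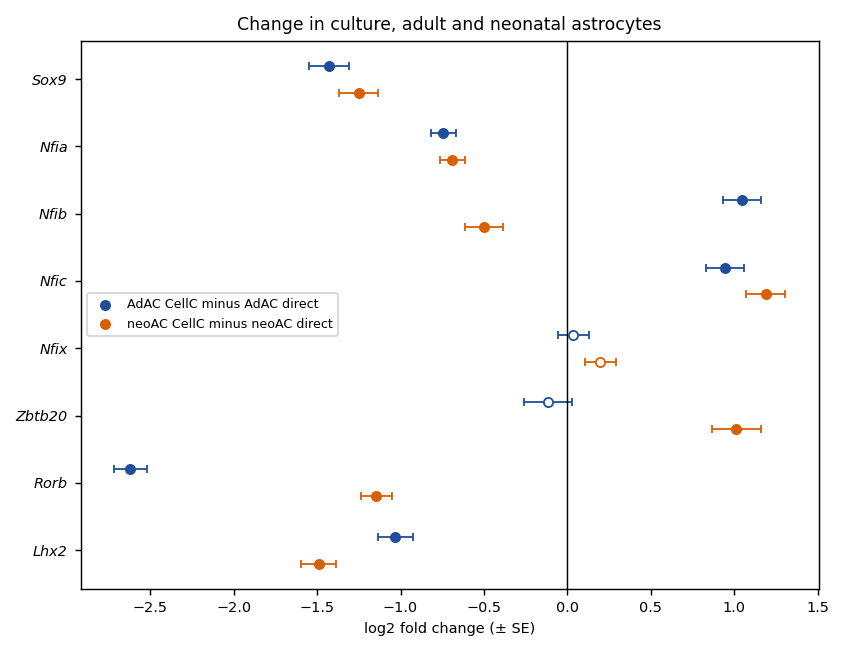
Change of the 8 genes in culture, as log2 fold change of cultured minus direct cells on the horizontal axis, with bars of 1 SE, for adult (blue) and neonatal (orange) astrocytes. Filled points passed an adjusted p of 0.05 and open points did not. Sox9, Nfia, Rorb and Lhx2 lie left of 0 at both ages and Nfic right of 0, while Nfib lies at 1.05 in adult and -0.50 in neonatal cells.

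From NSC to AGES, 5 of the 8 genes rose (Zbtb20, Sox9, Nfix, Rorb and Nfia, against 31.7% of all genes) and 3 fell (Lhx2, Nfic and Nfib, against 34.0%), and the libraries did not overlap for 7 of the 8 (all genes, 58.3%). The other AGES comparisons share the AGES libraries with this one. Against AdAC CellC, Sox9 and Nfia were higher in AGES (all genes, 31.0%), Nfib, Nfic and Lhx2 were lower (all genes, 45.2%), and for 5 of 8 genes the libraries did not overlap (all genes, 73.1%). Against neoAC CellC, Nfia was higher in AGES (all genes, 34.1%), Nfic, Nfix, Zbtb20, Rorb and Lhx2 were lower (all genes, 40.5%), and for 6 of 8 genes the libraries did not overlap (all genes, 69.6%). Between cultured cells of the 2 ages, 6 genes were higher in the neonatal group (all genes, 28.5%), Nfic was lower (all genes, 35.2%), Nfib did not pass, and 7 of 8 showed no overlap (all genes, 62.2%). Between direct cells, 5 were higher in the neonatal group (all genes, 35.0%), Nfic and Zbtb20 were lower (all genes, 36.4%), Rorb did not pass, and 6 of 8 showed no overlap (all genes, 64.9%). The medians over the 8 genes were 0.36 for AGES against NSC, -0.08 against AdAC CellC, -0.59 against neoAC CellC, and 0.66 and 0.68 for neonatal against adult cells, cultured and direct, with medians over all genes of 0, -0.23, -0.07, -0.08 and 0.

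**Figure D4:**
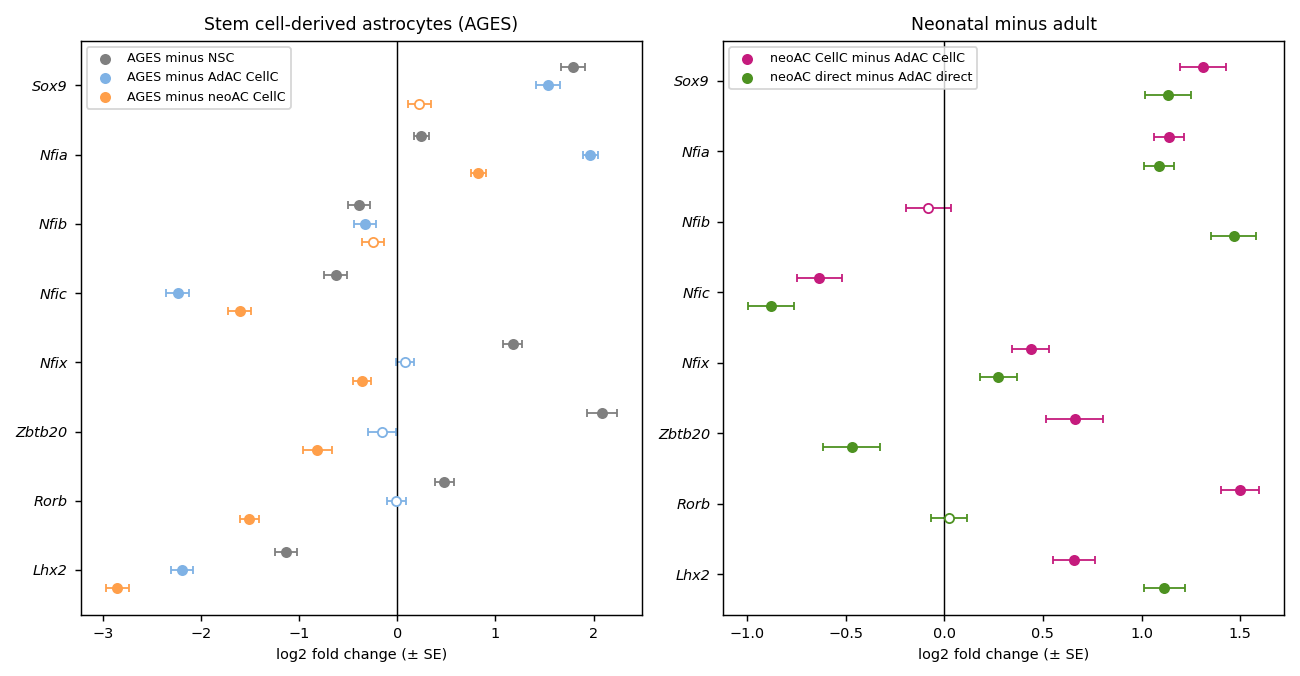
Log2 fold changes of the 8 genes (horizontal axis, bars of 1 SE) for AGES against NSC and against both cultured groups (left) and for neonatal minus adult astrocytes, cultured and direct (right). Filled points passed an adjusted p of 0.05 and open points did not. Zbtb20 and Sox9 lie farthest right for AGES minus NSC, at 2.08 and 1.79, and Lhx2 farthest left, and Nfic lies left of 0 for both age comparisons.

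The 8 listed genes known to depend on SOX9 or NFI proteins moved in both directions in culture. The list does not separate genes that these proteins raise from genes that they lower. No common direction was therefore to be looked for, and the counts and medians below say nothing of the activity of these proteins. In adult culture 3 of the 8 rose (Fabp7, a fatty acid binding protein of radial glia, by 2.24, Ezh2, a histone methyltransferase, by 1.98 and Hes1, a Notch effector, by 0.46 on the log2 scale), 4 fell (Mmd2 -4.43, Apcdd1 -0.996, Zcchc24 -0.95, Insc -0.73), and Gfap, the glial intermediate filament, had 0.18 and did not pass. Apcdd1, Mmd2 and Zcchc24 are shared targets of SOX9 and NFIA in the embryonic spinal cord. In neonatal culture these 3 fell as well (Apcdd1 -4.17, Mmd2 -2.68, Zcchc24 -0.60), together with Fabp7 (-3.04) and Hes1 (-2.76), whereas Insc (2.06), Gfap (0.70) and Ezh2 (0.27) rose. The rise of Insc was between low levels, from 0.204 CPM in neoAC direct, close to the level of 3 counts, to 0.904 CPM. Of all genes tested, 38.8% and 39.2% rose and fell in adult and 34.4% and 31.3% in neonatal culture. The medians of the 8 were -0.28 in adult and -1.64 in neonatal culture.

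With BMP4, Gfap rose by 10.59 on the log2 scale, from 32.9 ± 2.89 to 50503 ± 1883 CPM (SD, n = 4), and Insc, which orients the mitotic spindle, by 1.36. Insc was close to the level of 3 counts in NSC (0.168 CPM) and AGES (0.445 CPM), with overlapping libraries. Its level in neoAC direct was 0.204 CPM, against 51.3 CPM in AdAC direct. Ezh2 (-2.56), Apcdd1 (-1.88), Fabp7 (-1.13), Hes1 (-0.72) and Zcchc24 (-0.35) fell, and Mmd2 had 0.11 and did not pass (all genes higher and lower, 31.7% and 34.0%). In direct cells 7 of the 8 were higher in neonatal than in adult mice (all genes, 35.0%), led by Fabp7 (6.18) and followed by Gfap (3.36), Apcdd1 (2.56), Hes1 (1.71), Mmd2 (1.67), Ezh2 (1.55) and Zcchc24 (0.49), and Insc was lower (-7.89). In cultured cells (all genes higher and lower, 28.5% and 35.2%) 4 were higher in the neonatal group (Gfap 3.88, Mmd2 3.42, Fabp7 0.91 and Zcchc24 0.84), 3 were lower (Insc -5.10, Hes1 -1.52 and Apcdd1 -0.62) and Ezh2 did not pass (-0.16). AGES (all genes higher and lower, 31.0% and 45.2%) were above AdAC CellC in Gfap (8.06) and Zcchc24 (1.28), below it in 5 genes (Insc -6.13, Mmd2 -4.19, Apcdd1 -3.63, Hes1 -1.03 and Ezh2 -0.97), and Fabp7 did not pass (-0.06). AGES (all genes higher and lower, 34.1% and 40.5%) were above neoAC CellC in Gfap (4.18), Hes1 (0.48) and Zcchc24 (0.44) and below it in Mmd2 (-7.61), Apcdd1 (-3.01), Insc (-1.03), Fabp7 (-0.97) and Ezh2 (-0.81). Of the 6 upstream windows listed for these genes, 5 held TTGGC (all windows, 41.5%) and 1 held ACAAT (27.7%). AGGTCA was in 2 (14.0%) and TAATTA in 1 (4.84%). These counts of a few windows were not tested.

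Of 8 effector genes of mature astrocytes (transporters, channels, connexins and enzymes), all fell in adult culture (all genes, 39.2%), with a median of -3.56, led by the connexin Gjb6 (-9.72) and the glutamate transporter Slc1a2 (-6.93). In neonatal culture 7 of 8 fell (all genes, 31.3%, median -2.17), led by the same pair (Gjb6 -3.82, Slc1a2 -3.39). With BMP4 4 rose (all genes, 31.7%), foremost the water channel Aqp4 (7.24) and S100b (3.20), and none fell. All 8 were higher in neonatal than in adult cultures (all genes, 28.5%), whereas between direct cells 3 were higher in the neonatal group and 2 lower (all genes, 35.0% and 36.4%). Relative to AdAC CellC, AGES were higher in 5 and lower in 2 (all genes, 31.0% and 45.2%), and relative to neoAC CellC higher in 2 and lower in 4 (all genes, 34.1% and 40.5%).

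Among 22 other transcription regulators of glia and progenitors, 5 rose and 16 fell in adult culture (all genes, 38.8% and 39.2%) and 2 rose and 20 fell in neonatal culture (all genes, 34.4% and 31.3%), with medians of -0.97 and -1.17. The Notch effector Hes5 fell most at both ages (-6.10 and -9.31), Runx2 rose most (3.23 and 2.42), and the stress-responsive factor Atf3 rose in adult (1.90) and fell in neonatal (-3.43) culture. Dbx2, a homeobox factor, fell by 3.43 on the log2 scale in adult culture and Glis3 rose by 1.54 in neonatal culture. With BMP4 11 rose and 8 fell (all genes, 31.7% and 34.0%), with Atf3 (4.38) and Glis3 (2.45) leading upwards and the ETS factors Etv4 (-5.28) and Etv5 (-5.21), which respond to FGF signalling, downwards. Neonatal exceeded adult cells in 17 genes and fell short in 3 when direct (all genes, 35.0% and 36.4%), and in 14 and 3 when cultured (all genes, 28.5% and 35.2%). AGES were higher than AdAC CellC in 10 and lower in 9 (all genes, 31.0% and 45.2%), and higher than neoAC CellC in 9 and lower in 11 (all genes, 34.1% and 40.5%).

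Of 11 relatives and cofactors of the 8 genes, 2 rose and 6 fell in adult culture (all genes, 38.8% and 39.2%) and 3 rose and 6 fell in neonatal culture (all genes, 34.4% and 31.3%). With BMP4, Rora, a relative of Rorb, rose by 2.11 on the log2 scale, beside 0.48 for Rorb, a difference that was not tested. In adult culture Ldb2, a cofactor of LIM homeodomain proteins, fell by 2.01 on the log2 scale, and Lhx9, the closest relative of Lhx2, rose by 1.39. Lhx9 was low there, at 0.414 CPM in AdAC direct and 1.09 CPM in AdAC CellC, with overlapping libraries. In neonatal culture Lhx9 fell by 2.88, from 1.57 to 0.208 CPM. The LIM-only gene Lmo2 fell by 2.16, from 7.57 ± 5.94 CPM (SD, n = 4), a wide spread between the direct libraries (3.43 to 16.4 CPM), to 1.68 ± 0.871 CPM. Sox10, a relative of Sox9 that marks oligodendrocytes, rose by 1.53 from 3.15 ± 2.45 to 9.35 ± 2.09 CPM. With BMP4 3 of the 11 rose and 3 fell (all genes, 31.7% and 34.0%). In AGES 3 were higher and 7 lower both against AdAC CellC (all genes, 31.0% and 45.2%) and against neoAC CellC (all genes, 34.1% and 40.5%). Neonatal exceeded adult cells in 4 and fell short in 3 when cultured (all genes, 28.5% and 35.2%), and in 3 and 6 when direct (all genes, 35.0% and 36.4%).

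The genes whose pattern over the 24 libraries was most like that of a member were found by the root mean square difference of log2 CPM after centring each gene, among protein-coding genes with an SD of at least 0.5 times its own. For Sox9 they were Agpat3 (0.30) and Dok5 (0.35) (log2 units). Nfia was followed most closely by Zfp41 (0.20) and Idh1 (0.25), Nfib by Sec23a (0.16) and Ccdc6 (0.20) and Nfic by C77080 (0.30) and Mdm2 (0.31). For Nfix the closest were Fbxw9 (0.16) and Arhgap44 (0.20), for Zbtb20 Dync2li1 (0.26) and Tcte2 (0.31), for Rorb Zfp879 (0.31) and Gli2 (0.38) and for Lhx2 Nlrx1 (0.37) and Lonrf3 (0.39). Dync2li1 encodes a subunit of the dynein that moves cargo inside cilia and Gli2 a transcription factor of the hedgehog pathway. Among the 8 genes themselves the closest pair was Nfix and Zbtb20 (0.55), less alike than any of the pairs just named.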

How the data were processed

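RNA of 24 samples was sequenced as paired reads from poly(A)-selected, stranded libraries. The authors aligned the reads with STAR 2.7.3a to GRCm38, keeping up to 20 alignments of a read, and counted reads over the exons of each Gencode gene with featureCounts. The deposited values are these raw counts, whole numbers per gene and library. Whether counting used the strand is not given in the sources used here, and exons of genes on the opposite strand covered at most 1.86% of the exon length of a member. The counting options given name none for reads with several alignments, which featureCounts leaves out by default, so that genes with near-identical copies may be undercounted.

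From the counts, genes with few reads were removed with filterByExpr, libraries were scaled by TMM, and 1 model of the 6 groups was fitted with edgeR 4.0.16 (R 4.3.3) by its quasi-likelihood test, with Benjamini-Hochberg adjustment over all 19691 genes and a threshold of 0.05. This differs from DESeq2, which the authors used and which was run here as an alternative (version 1.42.0). Levels per kb used exon lengths of a later Gencode release on the same build. Shares of the NFI paralogs were compared by exact two-sided permutation tests (scipy 1.17.1). The fit was tested on simulated counts. Counting error is small at 27904126 to 37997368 counts per library, and the spread between separate isolations or cultures sets the precision. No columns were left unused. The 8 genes and all gene lists were chosen with earlier results of these data known. Named beyond the 8 were the members of the SOX9 and NFI list, the genes of the other lists with the largest changes past the threshold in some of the comparisons, and the 2 genes closest to each member. A gene of the list of relatives that this rule would name is not reported here. Alternatives were other scalings, other filters, DESeq2, a fit of only the groups compared, a replicate block and leaving out each library.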

Additional observations from a re-analysis of the deposited data

Results flagged for a closer look

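In 72 checks of 4 libraries each for a value standing apart (Dixon's test), 2 were past the critical value, both in replicate 4 of neoAC direct, and chance gives about 1 in 20. Its Sox9 level was 428 CPM and its Nfix level 404 CPM, each the lowest of its group. With the main settings, the change in culture differed between adult and neonatal cells for 4 of the 8 genes by the interaction term of edgeR's quasi-likelihood test. Which genes passed depended in part on scaling and filter, as given above for Lhx2, Nfic and Nfix. Adult minus neonatal, the difference on the log2 scale was 1.55 for Nfib, which rose in adult and fell in neonatal culture, and -1.13 for Zbtb20, which rose in neonatal culture and did not pass in adult culture. It was -1.47 for Rorb and 0.46 for Lhx2, which fell at both ages.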

How the results depend on the processing

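Over 1984 log2 fold changes under alternatives, no fold change of a member that passed the test turned its sign, and of 50 that passed, 5 were lost in at least 1 alternative, each named beside its value in the report. The counts of members past the threshold stayed within 1.5 times of those reported in all 496 cases. Signs turned for 6 fold changes near 0 that had not passed. Nfix in adult culture was -0.048 with DESeq2 size factors, -0.064 with no filter and -0.048 with the DESeq2 test. Rorb in AGES against AdAC CellC was 0.030 with size factors, 0.110 with no filter, 0.092 with only these groups and 0.029 with the DESeq2 test, and ran from -0.078 to 0.070 over the libraries left out. With total counts only it kept its sign and passed edgeR's test (-0.229, adjusted p = 0.0499). Nfix in the same comparison was -0.144 when scaled by total counts only and -0.027 when 10 counts were needed in every library, and ran from -0.0093 to 0.113 over the libraries left out. Sox9 in AGES against neoAC CellC was -0.079 with total counts only. Nfib between cultured cells of the 2 ages was 0.024 with size factors, 0.0012 with total counts only, 0.00034 with no filter, 0.020 with 10 counts needed, 0.012 with only these groups and 0.024 with the DESeq2 test. Rorb between direct cells of the 2 ages was -0.042 with total counts only and -0.0066 with 10 counts needed, and ran from -0.029 to 0.067 over the libraries left out.

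For the NFI shares, the Nfix share in AGES against neoAC CellC was -0.969 points with coding length and -1.85 points for counts not divided by length. In neonatal against adult direct cells it passed with coding length (-4.95 points, adjusted p = 0.0364 by the exact permutation test) and with undivided counts (-6.45 points). Over the libraries left out, the Nfix share ran from -1.06 to 1.63 points in neonatal culture and from -1.49 to 1.21 between direct cells of the 2 ages, and the Nfib share from -0.501 to 0.488 for AGES against AdAC CellC. With 3 libraries in a group that test cannot pass 0.05, so these are values only. Why values moved was not tested.

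Scaling by total counts only moved the median of all genes to -0.45 in AGES against AdAC CellC, -0.37 in AGES against neoAC CellC and 0.27 in neonatal culture. The share of higher among called genes moved from 52.3% to 65.9% in neonatal culture and from 45.7% to 31.4% in AGES against neoAC CellC. Replicate numbers did not pair the samples: the correlation of deviations ran from -0.0953 to 0.106 over 28 pairs of same-numbered samples. A replicate block changed 1 call, Nfib in AGES against neoAC CellC (-0.25, adjusted p = 0.0321). Every member lay above 3 counts, which are at most 0.117 CPM, in every library.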
